A study of Mus musculus with 6 samples.

Results

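The gene segments of the T cell receptor were followed here through 4 days of stimulation of naive CD4 T cells with or without Foxo1. They were taken as the rows of the deposited normalized table whose mouse gene symbol starts with Tra, Trb, Trg or Trd followed by v, j or c, which found 130 of 13564 genes. Of these, 98 were alpha variable (V) segments with the alpha constant segment Trac, and 22 were beta V segments with both beta constant segments, Trbc1 and Trbc2. The others were the gamma V segment Trgv2, the gamma constant segments Trgc1, Trgc2 and Trgc4, the delta V segments Trdv1 and Trdv2-2, and the delta constant segment Trdc. All 130 passed the filter of at least 10 counts in at least 3 libraries, but the 4 gamma segments passed it through the Foxo1TKO libraries alone.

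The 6 libraries came from naive CD4 T cells sorted from lymph nodes (peripheral nodes per the labels, peripheral and mesenteric nodes pooled per the study's methods) of mice that carried floxed Foxo1 alleles on both chromosomes and a Foxp3-GFP reporter. Foxo1TKO mice also carried Cre under the control of CD4 regulatory sequences (3 libraries), whereas Foxo1Ctrl mice were littermates without Cre (3 libraries), and per the study's methods mice were 3 months old unless otherwise stated. CD4-driven Cre deletes at the CD4+CD8+ stage in the thymus, so that CD8 T cells lack Foxo1 too and the cells studied had matured without it. Cells were stimulated with an anti-CD3 antibody (0.1 µg/ml) in the presence of splenocytes from CD3eKO mice, a strain without mature T cells. The sources used here do not state if these feeder cells were removed ahead of RNA extraction. Nor do they say that the 3 libraries of a genotype came from separate mice or cultures, so that p-values measure only the spread between these libraries.

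Each T cell receptor chain gene is assembled in the thymus by joining 1 V segment, for beta and delta a diversity (D) segment, and 1 joining (J) segment, and the product is spliced to a constant segment. Beta, gamma and delta genes are rearranged in early CD4-CD8- thymocytes, and the alpha gene at the CD4+CD8+ stage. The delta segments lie within the alpha locus and are lost from a chromosome when its alpha gene rearranges. In a mature alpha-beta T cell, the alpha and beta chains pair at the surface with the CD3 proteins.

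Counts per library ranged from 14783853 to 19675407, and all T cell receptor segments together took between 0.4098% and 0.4824% of them. Foxo1 itself was at 85.4, 46.5 and 115 normalized counts in the Foxo1TKO libraries and at 1529, 2285 and 1598 in the Foxo1Ctrl libraries, so that the labels held. Normalized counts here are read counts divided by TMM-scaled library size and brought to the mean library. The 80 J segments in the count files are 29 to 72 bases long and, with the 4 D segments, had an effective length of 0 and no count in any library, so that J usage could not be measured. B cell transcripts were present in every library and lower in Foxo1TKO. The 10 B cell markers summed to 6661 to 8236 normalized counts in Foxo1TKO and to 19190 to 26630 in Foxo1Ctrl. Of the 9 tested, 6 were called lower, against 11.8% of all genes tested, and none of the 10 was at 0 throughout. Their part in the results below was not tested. The 9 alpha-beta T cell markers (Cd3e, Cd3d, Cd3g, Cd247, Cd5, Cd6, Thy1, Lat, Cd4) summed to 91740 to 103800 in Foxo1TKO and to 108600 to 118700 in Foxo1Ctrl, and none of the 9 was called different.

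The V segments called lower in Foxo1TKO are shown by the last 30 bases of their annotated germline sequence (GENCODE M21, GRCm38). This is the end that is joined to the D or J segment. Capitals mark the conserved cysteine codon at which the third complementarity-determining region starts, found as the first cysteine codon in frame in this stretch. All are beta V segments on chromosome 6, and all but Trbv31 lie on the plus strand.
Trbv20: cagaggcttatatctcTGTggtgctaggga
Trbv24: agcactgtagctcTGTgccagcagtctgta
Trbv13-2: catcagtgtacttcTGTgccagcggtgatg
Trbv15: agctgtgtatctgTGTgccagcagtttagc
Trbv29: atctgtgtacttcTGTgctagcagtttatc
Trbv12-1: tctgctatgtacttcTGTgccagctctctc
Trbv12-2: tctgccgtgtacttcTGTgccagctctctc
Trbv3: gtgtacttcTGTgccagcagcttagccaca
Trbv31: ctctggcttctacctcTGTgcctggagtct
Trbv24 is annotated as a pseudogene. Read in frame from its first ATG, it holds a TAG stop codon that starts at base 325 of the 347-base transcript, just ahead of the cysteine codon at base 331, and it was the only one of the 22 beta V segments with a stop codon before that cysteine.

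Segments of the beta chain were lower in Foxo1TKO than in Foxo1Ctrl, no segment of the alpha chain was called, and the rare gamma segments were higher. Of the 130 segments, 10 were called lower and 4 higher by edgeR (adjusted p under 0.05 over all 13691 genes tested and a fold change over 1.5). Of all genes tested, 11.8% were called lower and 11.1% higher. All 10 that fell were beta segments (9 of 22 V segments and Trbc2). All 4 that rose were gamma segments, which passed the filter through Foxo1TKO alone, so their number cannot be set against the share of all genes. None of the 98 alpha V segments, Trac or the 3 delta segments was called.

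The alpha constant segment Trac lies on chromosome 14 (chr14:54220521-54224206). Its normalized counts were 26920, 30750 and 33540 in Foxo1TKO and 22610, 27860 and 24870 in Foxo1Ctrl. The genotypes overlapped, and the log2 fold change of 0.28 (SE 0.16, adjusted p = 0.255) did not pass the test. On the TPM scale, which sets each library's total to the same value and corrects for length, Trac was at 3025, 3102 and 2983 in Foxo1TKO and at 2369, 2353 and 2604 in Foxo1Ctrl. On that scale the genotypes did not overlap.

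The beta locus has a pair of constant segments, each with its own D and J segments ahead of it. Trbc1 (chr6:41538218-41539881) was at 10390, 10420 and 10040 normalized counts in Foxo1TKO and at 15520, 13960 and 14680 in Foxo1Ctrl. Its log2 fold change of -0.52 (SE 0.13, adjusted p = 0.0248) passed the p threshold but, at 1.43-fold lower, not the fold limit. Trbc2 (chr6:41546730-41548352) was at 17630, 16050 and 15520 in Foxo1TKO and at 29210, 23810 and 25360 in Foxo1Ctrl. It was 1.59-fold lower (log2 fold change -0.67, SE 0.15, adjusted p = 0.0148) and was called. All 3 Foxo1TKO libraries were below all 3 Foxo1Ctrl libraries for both segments. The call for Trbc2 was lost without Foxo1TKO 2, Foxo1TKO 3 or Foxo1Ctrl 1 (adjusted p = 0.0855, 0.0641 and 0.0698). In bulk RNA, fewer cells of a type and less RNA per cell cannot be told apart.

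**Figure D1:**
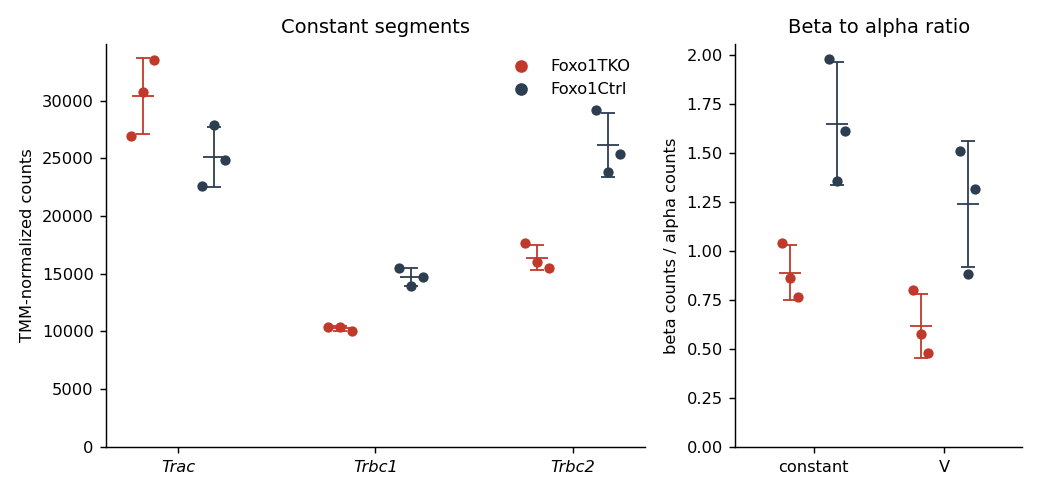
Left, TMM-normalized counts (y axis) of the constant segments Trac, Trbc1 and Trbc2. Right, beta counts over alpha counts for the constant and V segments. Each point is a library, red for Foxo1TKO and dark for Foxo1Ctrl, with mean and SD as bars (n = 3 per genotype). Trbc1 and Trbc2 and both ratios do not overlap between genotypes, whereas Trac does.

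Because alpha and beta RNA were read in the same libraries, their ratio does not depend on the library's scaling. Counts on Trbc1 and Trbc2 together were 1.041, 0.8609 and 0.7621 times those on Trac in the Foxo1TKO libraries. In the Foxo1Ctrl libraries they were 1.978, 1.356 and 1.61 times those on Trac. The genotypes did not overlap, and the ratio in Foxo1TKO was 0.541 times that in Foxo1Ctrl (geometric means). On the TPM scale the ratio was 1.093 ± 0.144 in Foxo1TKO and 2.012 ± 0.364 in Foxo1Ctrl (mean ± SD, n = 3). V segments gave a similar picture from other reads. Summed beta V counts were 0.799, 0.576 and 0.478 times the summed alpha V counts in Foxo1TKO and 1.511, 0.884 and 1.315 times in Foxo1Ctrl, again without overlap. With 3 libraries a genotype an exact permutation test cannot go below p = 0.1, so none was run on these ratios.

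V counts were then set against the constant counts of their own locus. Beta V segments summed to 6087, 5371 and 4629 normalized counts in Foxo1TKO and to 10540, 7270 and 9522 in Foxo1Ctrl. Per 1000 beta constant counts, there were 217, 203 and 181 beta V counts in Foxo1TKO and 236, 192 and 238 in Foxo1Ctrl, and here the genotypes overlapped. Per 1000 alpha constant counts there were 292 ± 10.4 alpha V counts in Foxo1TKO and 298 ± 9.18 in Foxo1Ctrl (mean ± SD, n = 3), also with overlap. Trbc1 took 37.1%, 39.4% and 39.3% of beta constant counts in Foxo1TKO and 34.7%, 37.0% and 36.7% in Foxo1Ctrl. The lowest Foxo1TKO value only just exceeded the highest Foxo1Ctrl value.

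Reads are divided between Trbc1 and Trbc2 by the bases in which they differ, and their longest annotated transcripts were 90.6% identical over 669 aligned bases. The stretch of the coding part in which they differ most, at bases 456 to 515 of each transcript, is shown with its 10 differing bases in capitals.
Trbc1: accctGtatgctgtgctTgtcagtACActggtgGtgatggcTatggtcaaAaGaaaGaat
Trbc2: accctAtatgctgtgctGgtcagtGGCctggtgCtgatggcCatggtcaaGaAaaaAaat

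All 22 beta V segments had a negative log2 fold change, with a median of -0.70 and a range from -1.30 to -0.37, whereas the median of all genes tested was 0.01. In 11 of the 22 the Foxo1TKO libraries were all below the Foxo1Ctrl libraries, and in none were they all above. Of all genes tested, 21.2% were lower without overlap and 21.5% higher without overlap. The 9 called segments fell by 1.56-fold to 2.46-fold, and 14 of the 22 had an unadjusted p under 0.05. The share of all genes under that p is not given here, so 14 of 22 has no background beside it.

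Trbv20 (chr6:41188273-41188977) fell most. It was at 200.3, 214.1 and 164.2 normalized counts in Foxo1TKO and at 505.5, 468.9 and 454.4 in Foxo1Ctrl, 2.46-fold lower (log2 fold change -1.30, SE 0.19, adjusted p = 0.0023). The genotypes lay far apart, with little spread in either. Trbv24, the pseudogene above (chr6:41218091-41218557), was rarer, at 30.4, 50.9 and 24.7 against 97.8, 81.2 and 83.3, and was 2.43-fold lower (log2 fold change -1.28, SE 0.34, adjusted p = 0.0282).

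Trbv13-2 (chr6:41121396-41121832), the beta V segment with the largest mean share of beta V RNA per length, was at 457.2, 388.7 and 348.8 normalized counts in Foxo1TKO. In Foxo1Ctrl it was at 959.8, 782.2 and 866.2, so that the lowest Foxo1Ctrl library was well above the highest Foxo1TKO library. It was 2.18-fold lower (log2 fold change -1.12, SE 0.18, adjusted p = 0.00352). Its neighbours of the same subgroup had smaller log2 fold changes. Trbv13-1 and Trbv13-3 had log2 fold changes of -0.59 (SE 0.31, adjusted p = 0.219) and -0.46 (SE 0.23, adjusted p = 0.183), their genotypes overlapped, and the differences between the 3 were not tested. The transcripts of Trbv13-2 and Trbv13-3 were 90.6% identical over 340 bases, and those of Trbv13-2 and Trbv13-1 88.7% over 337.

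The called falls of Trbv15, Trbv29, Trbv12-1 and Trbv12-2 were smaller. Trbv15 was at 378.6, 367.6 and 316.6 normalized counts in Foxo1TKO and at 794.1, 526 and 846.8 in Foxo1Ctrl (log2 fold change -1.02, SE 0.22, adjusted p = 0.0128). Trbv29 was at 138.6, 139.5 and 148.1 against 324.3, 282.5 and 257.7 (log2 fold change -1.01, SE 0.19, adjusted p = 0.00813). In both, the genotypes were apart, and the spread was wider among the Foxo1Ctrl libraries. Trbv12-1 was at 133.5, 114.1 and 130.9 against 268.3, 239 and 246.1, and Trbv12-2 at 241.7, 186 and 173.9 against 341, 344.2 and 394.3. These neighbours fell by 1.98-fold and 1.79-fold (adjusted p = 0.00947 and 0.021).

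The smallest called falls were those of Trbv3 and Trbv31. Trbv3 (chr6:41048290-41048828), was at 706.6, 790.5 and 591.3 in Foxo1TKO and at 1215, 960.6 and 1212 in Foxo1Ctrl, 1.62-fold lower (adjusted p = 0.0261). Trbv31 lies on the minus strand beyond the constant segments (chr6:41557691-41558452) and is joined by inversion. It was at 370.2, 383.4 and 386.3 against 710.6, 478 and 594.9, 1.56-fold lower (adjusted p = 0.0442). With 1 library left out, Trbv3 lost its call in 5 of 6 fits (adjusted p from 0.0506 to 0.0887) and Trbv31 in 5 (0.0883 to 0.154). Trbv24 and Trbv12-2 lost theirs in 4 each, without Foxo1TKO 3, Foxo1Ctrl 1 or Foxo1Ctrl 3 and, in turn, without Foxo1TKO 1 (0.0705 to 0.0947) or Foxo1TKO 2 (0.0601 to 0.101). Trbv15 lost its call without Foxo1TKO 2 or Foxo1Ctrl 3 (0.0529 and 0.0506) and Trbv12-1 without Foxo1TKO 2 (0.0561). Trbv20, Trbv13-2 and Trbv29 kept theirs in all 6.

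Among the 13 beta V segments not called, Trbv19, Trbv17, Trbv1 and Trbv2 had log2 fold changes from -0.78 to -0.70 and adjusted p from 0.0763 to 0.101. Trbv19 was at 502, 330.8 and 320.9 in Foxo1TKO and at 807.2, 430 and 752.8 in Foxo1Ctrl. The libraries overlapped because Foxo1Ctrl 2 lay below Foxo1TKO 1. Trbv4 moved least of the 22, at 349.1, 300.1 and 319.8 against 500.8, 298.5 and 453.4 (log2 fold change -0.37, SE 0.23, adjusted p = 0.287). Foxo1Ctrl 2 was the Foxo1Ctrl library closest to Foxo1TKO in summed beta V counts. Without it, 14 of the 22 beta V segments were called lower. Without Foxo1TKO 2 or Foxo1Ctrl 3, only 4 were, and without Foxo1TKO 3 or Foxo1Ctrl 1, 5 were, yet all 22 kept a negative log2 fold change in each of these fits.

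**Figure D2:**
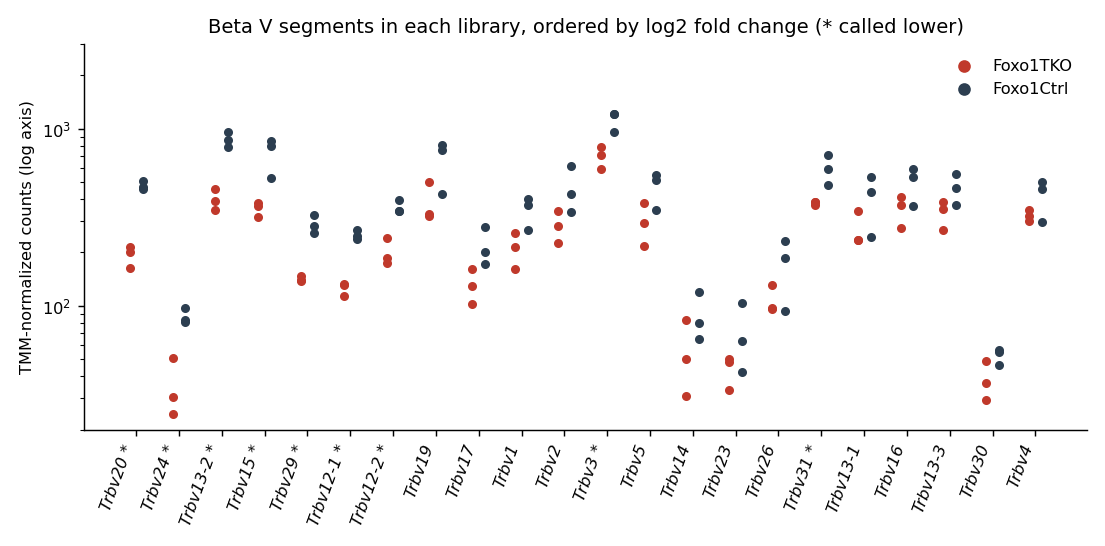
TMM-normalized counts (y axis, log scale) of the 22 beta V segments, ordered along the x axis from the lowest to the highest log2 fold change. Each point is a library, red for Foxo1TKO and dark for Foxo1Ctrl, and asterisks mark the 9 segments called lower. The genotypes are clearly apart for Trbv20 and Trbv13-2 and overlap for Trbv4.

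Shares of V counts describe the make-up of the beta repertoire apart from its level. The effective number of beta V segments (the exponential of the Shannon entropy of their shares, the number of equally used segments that would give the same diversity) was 17.98, 17.6 and 17.85 in Foxo1TKO and 18.28, 17.81 and 17.56 in Foxo1Ctrl. The values of the genotypes were interleaved. Of the 18 segments with a mean share of at least 1% of beta V counts, 12 overlapped between genotypes, 3 were lower and 3 were higher in Foxo1TKO. In neither direction was 3 of 18 more than among all genes tested, where normalized counts gave 21.2% lower and 21.5% higher without overlap. The differences in share were not tested.

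The lower shares were those of Trbv13-2, Trbv20 and Trbv15. Trbv13-2 took 7.51%, 7.24% and 7.54% of beta V counts in Foxo1TKO and 9.10%, 10.8% and 9.10% in Foxo1Ctrl. Trbv20 took 3.29%, 3.99% and 3.55% against 4.79%, 6.45% and 4.77%. Trbv15 took 6.22%, 6.84% and 6.84% against 7.53%, 7.24% and 8.89%. The shares that were higher were those of Trbv16, Trbv13-3 and Trbv4, none of which was called lower in level. Trbv4 took 5.74%, 5.59% and 6.91% in Foxo1TKO and 4.75%, 4.11% and 4.76% in Foxo1Ctrl. Trbv13-3 took 6.36%, 6.53% and 5.82% against 5.27%, 5.07% and 4.87%, and Trbv16 6.78%, 6.89% and 5.96% against 5.62%, 5.002% and 5.63%. The widest of these gaps, that of Trbv13-2, was 2.23 percentage points between means (SD 0.166 and 0.959). Per length, on the TPM scale, Trbv13-2 took 9.58% ± 0.246 of beta V RNA in Foxo1TKO and 12.3% ± 1.05 in Foxo1Ctrl (mean ± SD, n = 3), again without overlap. When library size was set to the beta constant counts, a scaling chosen after the data were seen that moves the median of all genes tested to 0.61, Trbv20 was the only beta V segment still called lower (log2 fold change -0.69, adjusted p = 0.0199). Trbv13-2 then had a log2 fold change of -0.51 and an adjusted p of 0.0398, under the fold limit, and the median of the 22 was -0.08.

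No alpha V segment passed the test. Of 98, 77 had a positive and 21 a negative log2 fold change, with a median of 0.23 and a range from -0.78 to 0.87, and the smallest adjusted p was 0.104. An unadjusted p under 0.05 was reached by 2 of the 98, again without the share of all genes beside it. Foxo1TKO libraries were all higher in 16 of 98 and all lower in 3 of 98, shares no larger than the 21.5% and 21.2% among all genes. Over all alpha V segments in the count files, the summed counts were 7619, 9325 and 9688 in Foxo1TKO. In Foxo1Ctrl they were 6979, 8223 and 7240, with overlap. DESeq2 called none of the 98 either, and limma on the deposited normalized signal called 2 higher.

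Trav7-4 (chr14:53461099-53461738), the only alpha V segment with at least 4% of alpha V counts, was at 518.1, 527.3 and 769.5 in Foxo1TKO and at 391.1, 523.8 and 451.5 in Foxo1Ctrl (log2 fold change 0.41, SE 0.22, adjusted p = 0.22). Foxo1TKO 3 stood above the others, and the genotypes overlapped. Trav6-3 had the largest log2 fold change of the alpha V segments, 0.87 (SE 0.40, adjusted p = 0.162), at 62.5, 60.5 and 90.2 against 25.0, 28.6 and 61.0. Here too the highest Foxo1Ctrl library, Foxo1Ctrl 3, lay above the lowest Foxo1TKO library. Trav6d-3, named as a copy of Trav6-3, was at 12.7, 64.9 and 12.9 in Foxo1TKO and at 38.2, 20.6 and 2.9 in Foxo1Ctrl. Its coefficient of variation within a genotype was 92.8%. How reads were divided between Trav6-3 and Trav6d-3 was not tested, so the value of Trav6-3 may depend on it.

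Trav11, the V segment of the invariant receptor of NKT cells, had 0 reads in all 6 libraries and was not tested. Trav11d, a copy of it, was at 14.4, 17.6 and 26.8 in Foxo1TKO and at 26.2, 11.4 and 24.2 in Foxo1Ctrl (log2 fold change -0.08, SE 0.44, adjusted p = 0.916). Trav1, the V segment of mucosal-associated invariant T cells, was at 48.2, 38.6 and 60.1 against 27.4, 44.6 and 39.7 (log2 fold change 0.38, SE 0.33, adjusted p = 0.45). In both, the libraries of the genotypes were interleaved. These SEs allow a change of some size in either direction.

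The mouse alpha locus holds a large internal duplication, and many of its V segments come as near-identical copies named with a d or an n. Of the 98, 28 had an annotated transcript identical to that of another member, and the same 28 had identical counts in all 6 libraries, in 14 sets of 2. They are therefore 14 measurements, not 28. Another 4 differed from their copy only in length, and their sequences are shown at the end where the longer copy goes on, with its extra bases in capitals.
Trav7-2: actctgctctctacctctgtgcagcaagc
Trav7d-2: actctgctctctacctctgtgcagcaagcA
Trav12d-3: atgcgtcctgtcacctgctcagtt
Trav12n-3: CTGAACatgcgtcctgtcacctgctcagtt
Trav7-2 had 256.9, 23.7 and 168.5 normalized counts in Foxo1TKO and 277.8, 96.1 and 0 in Foxo1Ctrl. Trav7d-2 had 0, 294.8 and 172.8 and 0, 192.1 and 265.5 in the same libraries. The count went from one copy to the other between libraries of 1 genotype. Their sum was steady, at 256.9, 318.5 and 341.3 in Foxo1TKO and 277.8, 288.2 and 265.5 in Foxo1Ctrl. The coefficient of variation within a genotype was 95.9% for Trav7-2, 92.5% for Trav7d-2 and 9.19% for the sum, whereas the median was 16.5% over the 53 alpha V segments whose mean reached 50 normalized counts. Trav12d-3 and Trav12n-3 behaved in the same way, with 90.2% and 93.8% each and 20.9% for their sum. These copies had the lowest log2 fold change of the alpha V segments (-0.78 for Trav12d-3, SE 1.15) and one of the highest (0.85 for Trav12n-3, SE 1.05), and neither value can be read on its own.

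**Figure D3:**
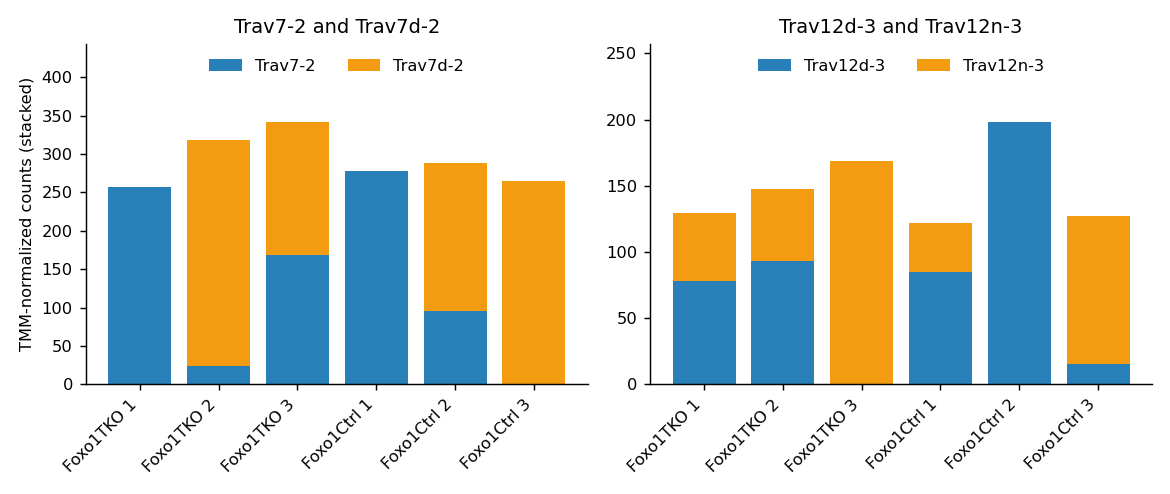
TMM-normalized counts (y axis, stacked bars) of Trav7-2 and Trav7d-2 (left) and of Trav12d-3 and Trav12n-3 (right) in each of the 6 libraries (x axis). The parts change from library to library, with Trav7d-2 at 0 in Foxo1TKO 1 and Foxo1Ctrl 1, while the height of the left stack stays between 256.9 and 341.3.

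With copies summed into subgroups, 19 alpha subgroups remained, of which 14 had a positive log2 fold change, and the smallest adjusted p was 0.166. None was called. Per length, on the TPM scale, Trav14, Trav7 and Trav6 were the most abundant. Trav14 took 21.96% ± 0.927 of alpha V RNA in Foxo1TKO and 21.5% ± 0.935 in Foxo1Ctrl, and Trav7 18.8% ± 1.37 and 19.0% ± 0.554 (mean ± SD, n = 3). Of the subgroups with at least 1% of alpha V counts, the share of Trav12 was lower without overlap (7.42%, 6.90% and 6.66% against 8.54%, 8.44% and 8.003%) and that of Trav4 higher (5.82%, 5.81% and 5.95% against 5.67%, 5.27% and 5.11%), while the other 12 overlapped. With 1 subgroup each way, this is no more than among all genes tested (21.2% lower and 21.5% higher without overlap, normalized counts). The effective number of alpha V subgroups was 10.51 ± 0.316 in Foxo1TKO and 10.61 ± 0.0906 in Foxo1Ctrl. Of the beta subgroups, 8 of 19 were called lower, since Trbv12-1 and Trbv12-2 became 1.

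Log2 fold changes were also set against the position of each segment in its locus. The beta V segments upstream of Trbc1 lie 256.8 to 647 kb from it, and the farthest, middle and nearest 7 had median log2 fold changes of -0.70, -0.72 and -0.78. Trbv31, beyond the constant segments, was at -0.64. The alpha V segments lie 344.5 to 1792.6 kb upstream of Trac, and the farthest 33, middle 32 and nearest 33 had medians of 0.15, 0.27 and 0.28. The ranges of the parts overlapped widely in both loci, and these medians are a description, with no test.

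**Figure D4:**
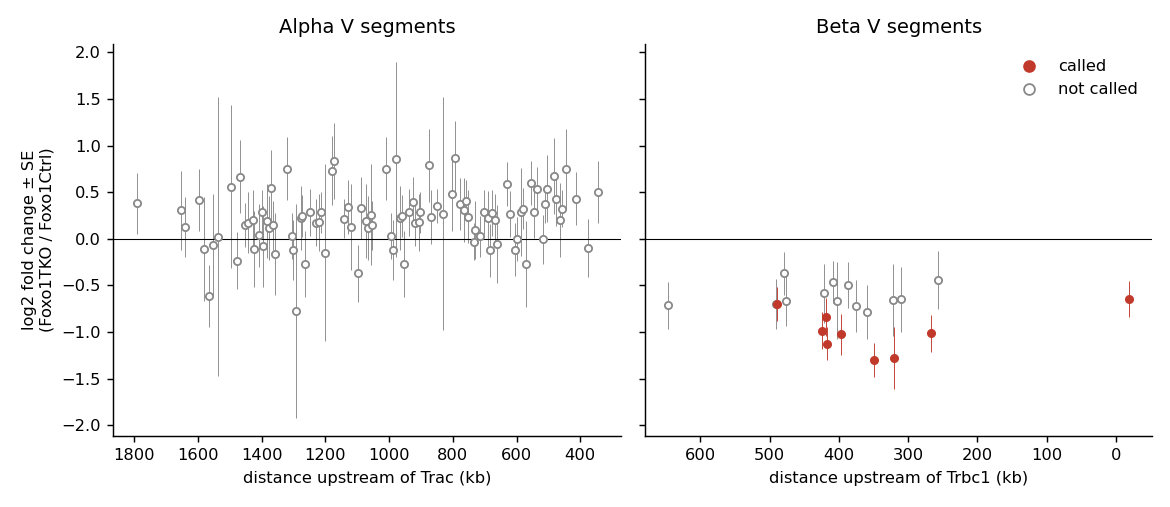
Log2 fold change of each V segment (y axis, Foxo1TKO over Foxo1Ctrl, with SE) against its distance upstream of the constant segment (x axis, kb), for the alpha locus (left, 98 segments) and the beta locus (right, 22 segments). Filled red points were called. Beta segments lie below 0 at every distance, and Trbv31 lies at a negative distance because it is downstream.

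Gamma segments were rare and were higher in Foxo1TKO. Alpha-beta T cells can carry rearranged gamma genes, whose RNA is usually low. The mouse gamma locus on chromosome 13 is built of 4 clusters, each with its own constant segment. Trgc2 (chr13:19304649-19307551, minus strand) had 127, 122 and 93 reads in Foxo1TKO and 7, 0 and 6 in Foxo1Ctrl. The lowest Foxo1TKO library was at 93 and the highest Foxo1Ctrl library at 7, and over the group the ratio was 22.2 (95% interval 12.8 to 42.1, counting error only). The edgeR fit gave an adjusted p of 0.00254.

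Trgc1 (chr13:19214103-19217024) had 31, 25 and 23 reads in Foxo1TKO and 2, 7 and 7 in Foxo1Ctrl, a ratio of 4.16 (2.41 to 7.64, adjusted p = 0.0195). Trgc4 (chr13:19344558-19352756) had 22, 13 and 26 against 0, 2 and 1, a ratio of 17.2 (5.6 to 85.5, adjusted p = 0.00881). Trgv2 had 24, 22 and 10 against 4, 0 and 1, a ratio of 9.45 (3.82 to 30.2, adjusted p = 0.0282). No Foxo1TKO library overlapped a Foxo1Ctrl library for any of the 4. These segments entered the normalized table and passed the filter through Foxo1TKO alone. With Foxo1Ctrl under the filter, such a segment could be kept only if it was higher in Foxo1TKO. Their number, adjusted p, intervals and kept calls therefore describe these segments and are no separate support for the direction. Trgc1 lost its call without Foxo1TKO 1, Foxo1TKO 2, Foxo1Ctrl 1 or Foxo1Ctrl 3 (adjusted p from 0.0525 to 0.0652), and Trgv2 without Foxo1TKO 1, Foxo1TKO 2 or Foxo1Ctrl 3 (0.065 to 0.102), while Trgc2 and Trgc4 kept theirs in all 6 fits. Trgc3, the constant segment of the remaining cluster, had 0 reads in all 6 libraries.

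Trgc1 and Trgc2 were 96.1% identical over 909 aligned bases, so that reads between them are divided by few positions. Bases 91 to 150 of each transcript, which lie within the coding part, are shown with the 3 differing bases in capitals.
Trgc1: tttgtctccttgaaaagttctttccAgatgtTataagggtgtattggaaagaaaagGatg
Trgc2: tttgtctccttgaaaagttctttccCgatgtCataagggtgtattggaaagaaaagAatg
Trgc4 is less alike, with 77.1% identity to Trgc2 over 856 aligned bases. Gamma constant segments summed to 2.77, 2.45 and 2.58 counts per 1000 alpha and beta constant counts in Foxo1TKO and to 0.159, 0.157 and 0.209 in Foxo1Ctrl, a very small part of these counts in both genotypes.

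The delta segments did not follow the gamma segments. Trdc (chr14:54142851-54148868), which makes the constant part of the delta chain, was at 75.2, 108 and 91.2 normalized counts in Foxo1TKO and at 85.8, 173 and 104 in Foxo1Ctrl (log2 fold change -0.40, SE 0.32, adjusted p = 0.422). Trdv1 was at 27.1, 38.6 and 36.5 against 27.4, 24.0 and 17.4 (log2 fold change 0.55, SE 0.34, adjusted p = 0.292). Trdv2-2 was at 14.4, 21.1 and 20.4 against 33.4, 41.2 and 32.0 and did not overlap, but its log2 fold change of -0.90 (SE 0.34, adjusted p = 0.0922) did not pass. Among other genes used as gamma-delta T cell markers, Cd163l1 was at 2.54, 0.88 and 0 normalized counts in Foxo1TKO and at 15.5, 8.01 and 12.6 in Foxo1Ctrl, under the filter. Blk was at 0, 14.9 and 0 against 9.54, 11.4 and 16.5 (adjusted p = 0.463), and Maf at 274.7, 266.7 and 275.8 against 263.5, 623.2 and 341.1 (adjusted p = 0.217). Sox13 and Il23r had under 13 normalized counts in every library. Their part in the gamma result was not tested.

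**Figure D5:**
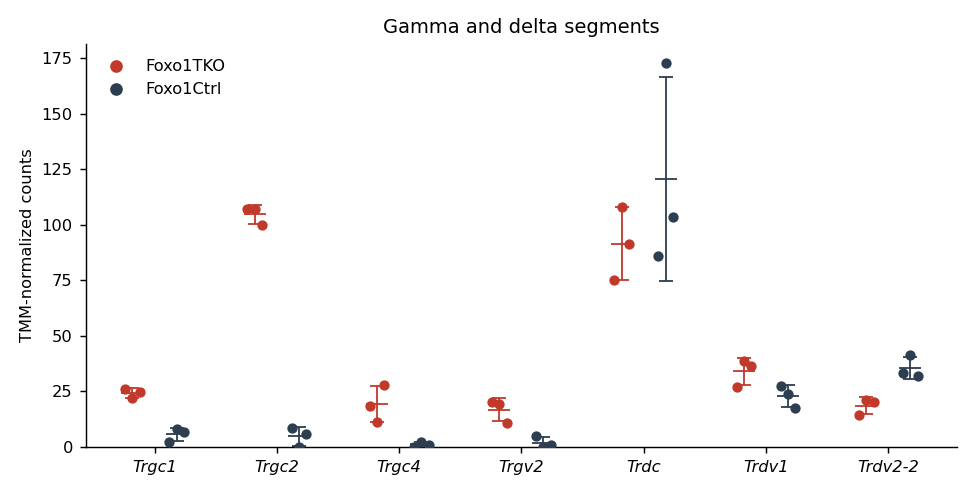
TMM-normalized counts (y axis) of the gamma and delta segments in each library, red for Foxo1TKO and dark for Foxo1Ctrl, with mean and SD as bars (n = 3 per genotype). The 4 gamma segments are higher in every Foxo1TKO library, whereas Trdc and Trdv1 overlap and Trdv2-2 is lower.

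Of the other genes of the receptor complex (Cd3d, Cd3e, Cd3g, Cd247, Ptcra, Cd4, Cd28), 6 passed the filter. None was called higher and Cd28 alone was called lower, against 11.1% and 11.8% of all genes tested. Cd3e, a CD3 chain without which the receptor does not reach the surface, was at 11180, 8183 and 8010 in Foxo1TKO and at 9413, 7457 and 9048 in Foxo1Ctrl (log2 fold change 0.08, SE 0.18, adjusted p = 0.796). Cd247, the zeta chain, had a log2 fold change of -0.17 (SE 0.13, adjusted p = 0.377), Cd3g of -0.35 (SE 0.20, adjusted p = 0.238) and Cd3d of -0.54 (SE 0.19, adjusted p = 0.0808). Cd4 varied as widely within a genotype as between them, at 7730, 3719 and 2441 against 8386, 2410 and 6310 (adjusted p = 0.721). Cd28, the costimulatory receptor, was at 5619, 6222 and 7210 against 14830, 19910 and 16540 (log2 fold change -1.43, SE 0.17, adjusted p = 0.00119). Ptcra, the partner of the beta chain before the alpha chain is made, had at most 3.38 normalized counts in any library.

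The recombinase genes Rag1 and Rag2 had 0 reads in all 6 libraries. For a single library, 0 reads allow an expected count of up to about 3 (95% limit, counting error only). Of the 10 genes of V(D)J recombination, 8 passed the filter, and the 2 called rose (11.1% of all genes tested were called higher). They were Xrcc5 and Xrcc6, the Ku proteins that bind DNA ends in every cell (log2 fold changes 1.06 and 0.81, adjusted p = 0.00311 and 0.0165). Dntt, which adds untemplated bases at the joins, was at 0.845, 12.3 and 0 in Foxo1TKO and at 27.4, 28.6 and 10.7 in Foxo1Ctrl (adjusted p = 0.144).

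Of 9 factors known to act at the enhancers of the alpha and beta loci, 2 were called lower and 1 higher. Of all genes tested, 11.8% were called lower and 11.1% higher, so these few calls are not read as a trait of the list. Lef1 was at 3463, 2691 and 2729 in Foxo1TKO and at 12390, 8735 and 9670 in Foxo1Ctrl (log2 fold change -1.79, SE 0.19, adjusted p = 0.000639). Ets1 was at 33460, 52060 and 52530 against 86490, 122000 and 94210 (log2 fold change -1.13, SE 0.23, adjusted p = 0.0106). Both were lower in every Foxo1TKO library. Runx1 was at 1312, 1001 and 892.9 against 686.8, 492.9 and 690.8 (log2 fold change 0.78, SE 0.21, adjusted p = 0.0336). Tcf7, at 9605, 8185 and 8840 against 17720, 8790 and 17480, did not pass (log2 fold change -0.72, SE 0.27, adjusted p = 0.0864), and Tcf12 passed the p threshold but not the fold limit (log2 fold change -0.56, adjusted p = 0.0381). Gata3, Tcf3, Myb and Cbfb had adjusted p from 0.362 to 0.823.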

How the data were processed

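RNA from 3 Foxo1TKO and 3 Foxo1Ctrl libraries was processed by the authors, who aligned reads to GRCm38 with STAR 2.7.6a and deposited, for each gene and library, RSEM 1.3.1 expected counts and TPM (reads mapping to several loci are shared out by an estimate). The authors also deposited a normalized signal table made with DESeq2. Trimming and strandedness are not given in the sources used here. The effective lengths imply mean fragments of 161 to 169 bases.

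Expected counts were rounded and fitted with edgeR 4.0.16 (R 4.3.3; TMM, quasi-likelihood test, prior count 1, genotype only, Benjamini-Hochberg adjustment over the 13691 genes that reached 10 counts in 3 or more libraries). Genes were called at adjusted p under 0.05 and a fold over 1.5. SE is the log2 fold change divided by the root of F. Sums, shares and ratios were described without a test. Rare segments were compared by the ratio of summed counts with an exact 95% interval that covers counting error only. DESeq2 1.42.0, limma 3.58.1 (log2 of normalized signal + 1) and other settings were alternatives. Scripts were tested on simulated data.

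Segments were placed by gene ID in GENCODE M21, which named all 130, and sequences were taken from its transcripts and aligned with Biopython 1.88. Members and lists were chosen with earlier results of these data known. Named were constant segments, V segments with at least 4% of a locus's V counts, called segments whose mean reached 100 normalized counts, the 5 largest and 5 smallest log2 fold changes, Trav11, Trav11d and Trav1. Others were added after their values were seen. One marker gene is not reported here.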

Additional observations from a re-analysis of the deposited data

Results flagged for a closer look

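Segments outside the normalized table were counted in the RSEM files. They entered the V sums, shares, effective numbers and subgroup sums above, but none of them was compared on its own. Of 54 such V segments, 31 had any reads. In 6 of them every Foxo1TKO library had more reads than any Foxo1Ctrl library, and in 2 fewer, with reads not scaled for library size. Of all genes tested, 21.5% were higher without overlap and 21.2% lower, but on normalized counts, so the scales differ. In 4 of the 6 the 95% counting interval of the ratio lay above 1. This interval used the same reads by which the 6 were picked, so it is no further support. It was not checked for the 2 that were lower. The 4 were Trgv1 with 15 reads in Foxo1TKO and 0 in Foxo1Ctrl, Trgv6 with 8 and 0, Trav4d-2 with 18 and 5, and Trav13-3 with 29 and 13. The other 2, Trav9d-2 and Trav9n-2, had identical counts, 31 and 15. Their 9 reads in Foxo1TKO 1 and 7 in Foxo1Ctrl 1 came from libraries of 18960000 and 14780000 counts. After scaling, 9 reads in Foxo1TKO 1 equal 7.606 normalized counts and 7 reads in Foxo1Ctrl 1 equal 8.346. These 2 segments therefore overlap on that scale. The 2 that were lower were the beta V segment Trbv21, with 5 reads in Foxo1TKO and 17 in Foxo1Ctrl, and Trdv5 with 4 and 12. No other test was run on them.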

How the results depend on the processing

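The beta to alpha constant ratio held under all 8 alternatives, from 0.493 to 0.596 with 1 library left out at a time. The median log2 fold change of the beta V segments ranged from -0.889 to -0.551 and that of the alpha V segments from 0.179 to 0.317 in those fits, with 4 to 15 segments called lower, 2 to 4 called higher and 1854 to 3321 genes called in all (3144 with all 6 libraries). With library size set to the summed alpha and beta constant counts, which moves the median of all genes to 0.22 and the split of calls from 1525 higher and 1619 lower to 2345 and 1187, 6 segments were called lower and 7 higher, 3 of them alpha V segments. With the beta constant counts alone, added after the data were seen, 1 segment was called lower and 44 higher, the medians were -0.079 (beta V) and 0.824 (alpha V), and 5969 genes were called. A fit without both Foxo1TKO 3 and Foxo1Ctrl 2, also added, called 8 beta V segments lower and 4 gamma segments higher.

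Whether libraries with the same replicate number form pairs is not stated, and the study used paired t tests for its flow cytometry of such cultures. Correlations of same-numbered deviations were 0.43, 0.20 and -0.11, which with 3 libraries a genotype cannot settle the question. With the number as a block, 9 beta V segments were called lower and 4 gamma segments higher, and 13 of the 14 calls were kept (Trbv31 was lost, adjusted p = 0.0606, and Trbv19 gained, 0.0444). DESeq2 kept all 14 and called 11 beta V segments lower. Trbv31 was also lost without the filter (0.0678), with the effective length offset (0.0551) and in limma (0.0762), which lost Trbv3 too (0.0572). Over all alternatives, named segments kept their side of the threshold 414 times, lost a call 51 times and gained one 11 times, and no called value turned direction. Trgc1, Trgc4 and Trgv2, with at most 31 reads a library, are limited by depth.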
